A study of Mus musculus with 2 samples.

Results

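The genes for lubricin (Prg4), the hyaluronan synthases Has1 and Has2, the hyaluronan receptor Cd44 and the transcription factor Creb5 were followed in single cells of the mouse knee. These 5 genes were chosen by name out of 32245 gene columns, and all 5 were columns of both deposited tables. Their levels were compared between cells with a Prg4 value above 0 that also had Col2a1 above 0 (Prg4+Col2a1+) and cells with Prg4 above 0 but Col2a1 at 0 (Prg4+Col2a1-). Col2a1 encodes type II collagen, the main collagen of cartilage. The same genes were then described in classes of cells gated on other markers and by genotype.

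The control library came from female Stat3fl/fl mice, whose Stat3 copies are both flanked by loxP sites and which lack Cre. Female Acan-Cre+/Cre;Stat3fl/fl mice gave the mutant library and share the floxed Stat3 copies and carry a tamoxifen-regulated Cre under the aggrecan (Acan) promoter on 1 allele. For this cross the tamoxifen is stated as given at postnatal days 2 and 3, though not for the single-cell animals in particular. Their knee joints were taken at 1 month of age and those of 2 or 3 mice pooled per genotype. Cells were freed by crushing and by overnight digestion with dispase and collagenase, sorted as live cells without CD31, Ter119 or CD45, and sequenced by 10x 3′ chemistry. With 1 pooled library per genotype, the spread between mice is not known, no test was made, and every interval below is an exact (Clopper-Pearson) 95% binomial interval that covers counting error only. For a share of 0 the limit given is that of 3 counts of the total.

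Lubricin is a mucin-like glycoprotein that coats the joint surface and lowers friction. It is made by chondrocytes of the superficial zone of articular cartilage and by fibroblasts of the synovial lining. Hyaluronan is a long polysaccharide that gives synovial fluid its viscosity and anchors aggrecan in the cartilage matrix. It is spun out through the cell membrane by hyaluronan synthases from UDP-sugars, is bound at the cell surface by CD44, and is cut by hyaluronidases. CREB5 is a basic leucine zipper factor known to be needed for Prg4 expression in superficial zone chondrocytes.

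There were 4903 control cells and 1340 mutant cells, whose median depths were 4344 and 3743 UMIs (unique molecular identifiers, a count of molecules, here estimated from the deposited values). The libraries differed in what else they carried. Erythroid-gated cells were 34.3% of the control and 2.61% of the mutant cells although the sort excluded Ter119, at least 1 globin UMI was found in 75.7% and 8.43% of cells, and 14.2% and 36.7% of cells were above 5% mitochondrial. The parts of these differences in the genotype values below were not tested. Only 2 cell barcodes occurred in both libraries. Stat3 itself was at 140 CPM (UMIs of the gene per 1000000 UMIs summed over a group of cells) in control and 93.5 CPM in mutant chondrocyte-gated cells, and at 68.9 and 120 CPM over all cells. Whether the counted 3′ ends lie outside the deleted part is not given in the sources used here, so these values check neither label.

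In GRCm38 with Gencode M21, Prg4 lies at chr1:150449412-150466165 on the minus strand, Cd44 at chr2:102811141-102901665 on the minus strand and Creb5 at chr6:53287270-53700376 on the plus strand. Has2 lies at chr15:56665627-56694539 and Has1 at chr17:17843323-17855205, both on the minus strand. CREB and ATF factors bind TGACGTCA, and AP-1 factors, with which CREB5 shares its zipper type, bind TGANTCA. RefSeq promoter sequences (GRCm38.p6) were matched for 3 of the 5 symbols, Has1, Cd44 and Creb5. Of 32851 promoters of the same length, 1.79% held the first and 7.81% the second motif, each of which reads the same on both strands. The windows below are shown because Has1 and Creb5 carry the motif of the CREB family, to which Creb5 belongs. Each runs 5′ to 3′ on the strand of the gene, from 135 to 36 bases before a RefSeq transcript start, with a motif in capitals.
Has1, chr17:17855224-17855323, minus strand: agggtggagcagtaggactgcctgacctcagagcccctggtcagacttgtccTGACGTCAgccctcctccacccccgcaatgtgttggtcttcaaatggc
Creb5, first start, chr6:53287168-53287267, plus strand: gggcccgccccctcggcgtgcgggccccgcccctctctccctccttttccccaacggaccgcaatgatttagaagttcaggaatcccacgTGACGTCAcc
Creb5, second start, chr6:53573239-53573338, plus strand: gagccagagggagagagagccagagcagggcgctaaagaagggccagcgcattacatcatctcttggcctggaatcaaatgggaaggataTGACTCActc
Cd44, chr2:102901701-102901800, minus strand: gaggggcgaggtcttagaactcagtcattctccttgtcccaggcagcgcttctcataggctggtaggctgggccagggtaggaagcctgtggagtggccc

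The first base of TGACGTCA stood 83 bases before the start of Has1 and 45 bases before the first start of Creb5. The second Creb5 start had the AP-1 letters at the same distance of 45 bases. Neither motif was found in the Cd44 promoter. These are matches of letters and do not show binding.

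Prg4 was detected in 29.2% of control cells (28.0% to 30.5%) and 32.6% of mutant cells (30.1% to 35.2%). These are shares of all cells, of which erythroid-gated cells made up 34.3% in control and 2.61% in mutant. They are thus not compared between the genotypes. The control share was higher when the blood, endothelial and muscle gates were left out, as given among the alternatives below. The Prg4+Col2a1+ gate held 816 control and 215 mutant cells, and the Prg4+Col2a1- gate held 618 and 222. Because Prg4 and Col2a1 chose these cells, their own levels in the gates are a description. Prg4 was at 9440 CPM in the Prg4+Col2a1+ and 57991 CPM in the Prg4+Col2a1- cells of the control library, and at 10034 and 30935 CPM in those of the mutant library. Most of this signal came from few cells. In the control library the median Prg4+Col2a1- cell had 6.65 Prg4 UMIs and the highest had 3098, and 10% of the cells held 57.7% of the Prg4 UMIs. In the mutant library the median was 3.88, the highest was 4031, and 10% of the cells held 80.4%. The Prg4+Col2a1+ cells had medians of 1.66 in control and 5.93 in mutant and highest values of 919 and 1662.

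**Figure D1:**
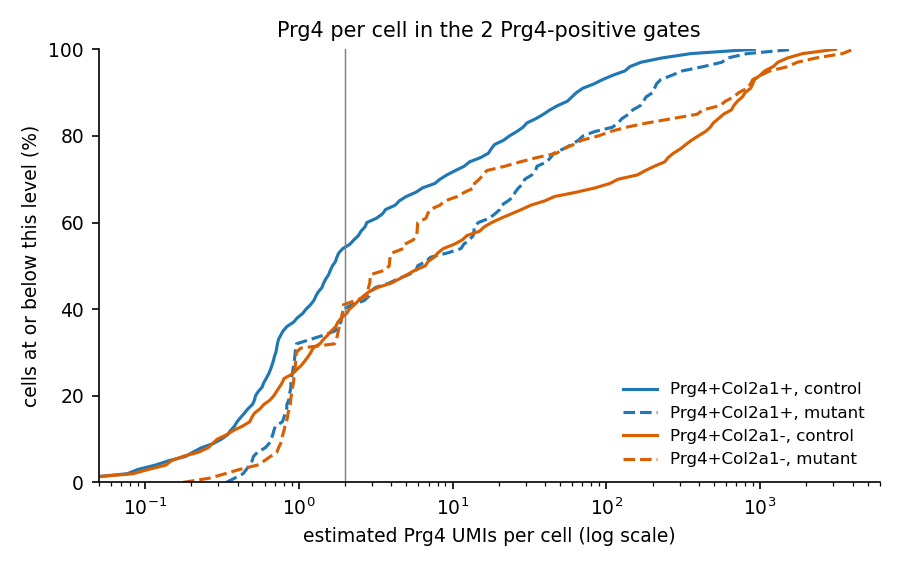
Percent of the cells of a gate at or below each level (y axis) of estimated Prg4 UMIs per cell (x axis, log scale), for the 2 gates of the control and mutant libraries. The curves start below 1 UMI and reach 919 (Col2a1+) and 3098 (Col2a1-) in control and 1662 and 4031 in mutant, so each gate runs from trace signal to very high Prg4.

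The low end of the gates is close to the threshold that defines them. Ambient-RNA correction left fractional values, and 54.4% of control and 40.9% of mutant Prg4+Col2a1+ cells, and 38.7% and 41.9% of Prg4+Col2a1- cells, had under 2 Prg4 UMIs. Col2a1 was likewise under 1 UMI in 25.4% of control and 29.8% of mutant Prg4+Col2a1+ cells. Prg4 was also above 0 in 4.10% of control erythroid-gated cells (3.21% to 5.17%), which should not make it. Values are therefore given for all cells of a gate and again for cells with at least 10 Prg4 UMIs. That minimum left 233 Prg4+Col2a1+ and 279 Prg4+Col2a1- cells in the control and 101 and 76 in the mutant library. It does not remove trace Col2a1. At that minimum, Col2a1 was still under 1 UMI in 9.87% of control and 23.8% of mutant Prg4+Col2a1+ cells. The part of such cells in the Prg4+Col2a1+ values was not tested.

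Markers of cartilage and of the synovial lining, which did not choose the cells of these gates, were detected in different shares of the gates. With all cells of the gates, the lining marker Clic5 was detected in 34.3% of control and 22.1% of mutant Prg4+Col2a1- cells, Tspan15 in 31.4% and 23.4%, and Htra4 in 40.8% and 27.0%. At 10 or more Prg4 UMIs the shares were 70.6% and 59.2% for Clic5, 66.3% and 56.6% for Tspan15, and 77.4% and 65.8% for Htra4. At 50 or more, a minimum chosen after seeing the data, Clic5 was detected in 88.0% of control and 81.1% of mutant Prg4+Col2a1- cells, against 9.62% and 22% of Prg4+Col2a1+ cells. Tspan15 was detected in 82.3% and 73.6% of those Prg4+Col2a1- cells against 5.77% and 22% of the Prg4+Col2a1+ cells, and Htra4 in 91.4% and 86.8% against 26.0% and 44%. Hbegf, the fourth gene of the lining list, was common on both sides, in 98.1% and 96.2% against 62.5% and 86%. Over all mutant cells of the gates its level was even slightly higher on the Col2a1+ side, at 1674 against 1450 CPM, while in control it was 799 against 2364 CPM. At the same minimum of 50 the cartilage proteoglycan gene Acan was detected in 87.5% of control and 62.0% of mutant Prg4+Col2a1+ cells, against 7.66% and 7.55% of Prg4+Col2a1- cells. Col9a1, a collagen that decorates the type II collagen fibril, was detected in 76.9% and 62.0% of the former and 0.957% and 3.77% of the latter. With all cells of the gates, 44.6% of control and 57.7% of mutant Prg4+Col2a1+ cells also passed the chondrocyte gate, while 56.3% of control Prg4+Col2a1- cells passed no class gate. Acan and Col9a1 are among the markers of the chondrocyte gate, so that share is not separate from their values. No gate for lining cells was used. The articular surface list held Cytl1, Chil1, Abi3bp, Erg, Gdf5 and Vit, and the growth cartilage list Ucma, Matn1, Matn3, Fgfr3, Pth1r and Col27a1. At 10 or more Prg4 UMIs these lists summed to 2497 and 939 CPM in control and 2879 and 1260 CPM in mutant Prg4+Col2a1+ cells. Tendon and ligament gate markers summed to 4458 CPM in these control and 2500 CPM in these mutant cells. All these sums were lower in Prg4+Col2a1- cells. The Prg4+Col2a1+ gate thus carried markers of several tissues.

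The synthases went opposite ways across the gates. Has1 was detected in 6.13% of control Prg4+Col2a1+ cells (4.58% to 8.0%) and in 19.1% of Prg4+Col2a1- cells (16.1% to 22.4%), at 27.3 and 85.8 CPM. In the mutant library it was detected in 13.5% (9.22% to 18.8%) and 33.8% (27.6% to 40.4%), at 43.6 and 122 CPM. In both libraries the Has1 level was lower on the Col2a1+ side, with log2 ratios of Prg4+Col2a1+ over Prg4+Col2a1- CPM (1 CPM added) of -1.62 in control and -1.46 in mutant cells. A positive cell usually had 1 or 2 Has1 UMIs, with at most 10 in any cell of the gates.

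Has2 was detected in 6.13% of control Prg4+Col2a1+ cells (4.58% to 8.0%) and in 3.24% of Prg4+Col2a1- cells (1.99% to 4.95%), at 37.4 and 9.64 CPM. In the mutant library it was detected in 20.5% (15.3% to 26.5%) and 13.1% (8.93% to 18.2%), at 56.3 and 28.5 CPM. The direction was the reverse of that of Has1, with log2 ratios of 1.85 in control and 0.96 in mutant cells, the latter just under 2-fold. The shares of the gates had overlapping intervals for Has2 and not for Has1. The Has2 ratio widened with the Prg4 minimum, to 3.23 in control and 2.31 in mutant cells with at least 10 Prg4 UMIs, and was 1.08 in control cells when cells were weighted equally. Over all alternatives the mutant Has2 ratio ran from 0.69 to 3.19. The third synthase gene, Has3, was at or under 1.69 CPM in each of the 4 gates with at least 10 Prg4 UMIs, too low to compare.

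Cd44 was detected in 15.8% of control Prg4+Col2a1+ cells (13.4% to 18.5%) and 44.5% of Prg4+Col2a1- cells (40.5% to 48.5%), at 100 and 280 CPM. The mutant shares were 41.4% (34.7% to 48.3%) and 55.0% (48.2% to 61.6%), at 183 and 306 CPM. Cd44 was thus lower on the Col2a1+ side by a log2 ratio of -1.47 in control and -0.74 in mutant cells. At 10 or more Prg4 UMIs the ratios were -1.55 and -1.42, and without globin-containing cells the control ratio at that minimum was -0.93, under 2-fold. Over all alternatives the mutant Cd44 ratio ran from -1.71 to -0.36.

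Creb5 was detected in 27.0% of control Prg4+Col2a1+ cells (23.9% to 30.1%) and 50.5% of Prg4+Col2a1- cells (46.5% to 54.5%), at 181 and 474 CPM. The mutant shares were 36.3% (29.8% to 43.1%) and, from 111 of 222 cells, 50% (43.2% to 56.8%), at 150 and 316 CPM. The log2 ratios were -1.38 and -1.07. They were under 2-fold when every cell was thinned to 1000 UMIs, at -0.84 and -0.70. Unlike Has1 and Has2, Creb5 had several UMIs in many positive Prg4+Col2a1- cells, with a median of 2.95 in control and 3.0 in mutant cells.

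Against all genes tested, those with at least 20 CPM in either gate and above 0 in at least 5% of the cells of either, 5.13% of 6709 were at least 2-fold higher and 5.47% at least 2-fold lower in control Prg4+Col2a1+ cells. In the mutant library 6.93% of 6464 were higher and 13.7% lower. Of the 4 members that did not define the gates, 1 was higher and 3 were lower in control, and none was higher and 2 (Has1 and Creb5) were lower in mutant cells. The median log2 ratio of all genes was -0.015 and -0.203, so Has1, Cd44 and Creb5 stood below it in both libraries, though Cd44 was under 2-fold in mutant cells. At equal depth the shares kept these directions. After thinning, Has1 was detected in 2.88% of control Prg4+Col2a1+ and 6.60% of Prg4+Col2a1- cells, and in 5.88% and 12.3% of mutant cells. The mutant Has1 intervals overlapped. The thinned Has2 shares of 2.42% and 1.39% in control and 2.94% and 1.90% in mutant cells had overlapping intervals.

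**Figure D2:**
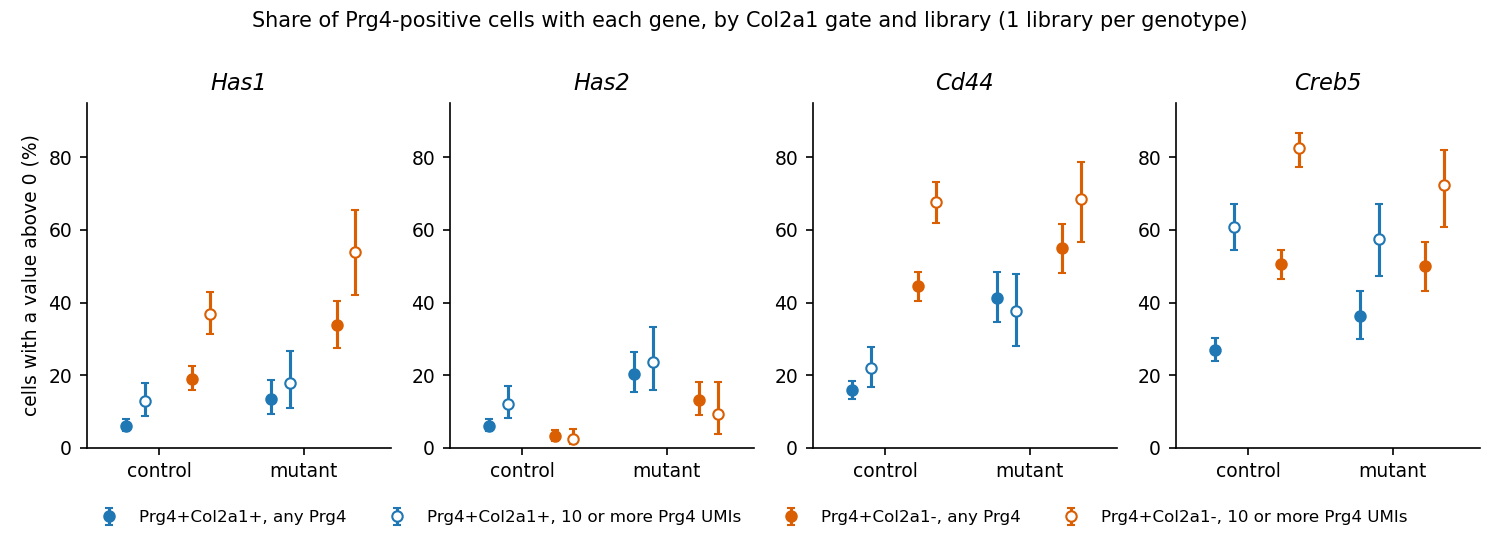
Percent of cells above 0 for Has1, Has2, Cd44 and Creb5 in the Prg4+Col2a1+ and Prg4+Col2a1- gates of each library, for all cells of the gate and for cells with at least 10 Prg4 UMIs, with exact 95% binomial intervals. Has1, Cd44 and Creb5 are higher on the Col2a1- side and Has2 on the Col2a1+ side in both libraries.

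Free RNA gives a background to these shares. In control erythroid-gated cells, with a median of 6096 UMIs against 2085 in Prg4+Col2a1+ and 3390 in Prg4+Col2a1- cells, Has1 was detected in 0.238% (0.0649% to 0.608%), Has2 in 0.476% (0.206% to 0.936%) and Creb5 in 2.86% (2.11% to 3.77%). All 3 shares were below those of both control gates. Cd44 was detected in 26.4% of erythroid-gated cells, above the share of control Prg4+Col2a1+ cells and below that of Prg4+Col2a1- cells. Blood cells are known to carry CD44, so the erythroid-gated cells give no background for it. The part of blood RNA in the Cd44 values of the gates was not tested. In control mural-gated cells, 4 of 55 had Cd44 (7.27%, 2.02% to 17.6%), at a median of 1994 UMIs. That interval overlaps that of the control Prg4+Col2a1+ cells. These 55 cells include 11 of the Prg4+Col2a1+ and 10 of the Prg4+Col2a1- gate, so they are not separate from the gates.

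The shares of Has1 and Cd44 in the gates were furthest apart at 50 or more Prg4 UMIs. Among control Prg4+Col2a1- cells, Has1 was detected in 3.77% at under 2 Prg4 UMIs (1.74% to 7.03%), 14.3% at 10 to under 50 (7.07% to 24.7%) and 44.5% at 50 or more (37.6% to 51.5%). In mutant cells the same steps gave 18.3% (11.0% to 27.6%), 30.4% (13.2% to 52.9%) and 64.2% (49.8% to 76.9%). On the Col2a1+ side Has1 was in 3.6%, 14.7% and 10.6% of control and 6.82%, 9.80% and 26.0% of mutant cells, so at 10 to under 50 the control sides had close shares. The Cd44 share went from 23.0% at under 2 to 75.1% at 50 or more Prg4 UMIs in control and from 44.1% to 81.1% in mutant Prg4+Col2a1- cells, where it was 39.1% (19.7% to 61.5%) at 10 to under 50. On the Col2a1+ side the Cd44 share was 13.5% and 21.2% at these ends in control and 44.3% and 46.0% in mutant cells, with overlapping intervals in each library.

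Has2 was seldom detected in the Prg4-richest Col2a1- cells. At 50 or more Prg4 UMIs it was detected in 2 of 209 control cells (0.957%, 0.116% to 3.41%), a share whose interval holds that of the erythroid-gated cells, and in 3 of 53 mutant cells (5.66%, 1.18% to 15.7%). Col2a1+ cells with as much Prg4 had Has2 in 17.3% of 104 control (10.6% to 26.0%) and 24.0% of 50 mutant cells (13.1% to 38.2%). The control intervals did not overlap and the mutant intervals did. Median depth was higher in the Prg4+Col2a1- cells, 4700 against 3625 UMIs in control and 10262 against 8019 in mutant cells, so the lower Has2 share was found in the deeper cells.

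The cells with the most Prg4 had the highest Creb5 share on both sides of the Col2a1 gate. In control Prg4+Col2a1+ cells it was detected in 9.23% at under 2 Prg4 UMIs (6.71% to 12.3%), 26.6% at 2 to under 10 (19.5% to 34.8%), 52.7% at 10 to under 50 (43.7% to 61.6%) and 71.2% at 50 or more (61.4% to 79.6%). In control Prg4+Col2a1- cells the 4 steps gave 21.8%, 30.0%, 54.3% and 91.9% (87.3% to 95.2%), close to the Col2a1+ share at 10 to under 50 and above it at the lowest and highest steps. The mutant Prg4+Col2a1+ cells gave 11.4%, 38.5%, 41.2% and 74.0% (59.7% to 85.4%), and the mutant Prg4+Col2a1- cells 33.3%, 47.2%, 43.5% and 84.9% (72.4% to 93.3%). Depth went up along the same steps, from a median of 1446 to 3625 UMIs in control Prg4+Col2a1+ cells. At 1000 UMIs per cell the lowest and highest steps were 5.71% and 34.0% in these cells, and 12.7% and 55.8% in control Prg4+Col2a1- cells. Col2a1+ cells without Prg4 had Creb5 in 15.6% of 1138 control (13.5% to 17.8%) and 10.8% of 518 mutant cells (8.27% to 13.8%).

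**Figure D3:**
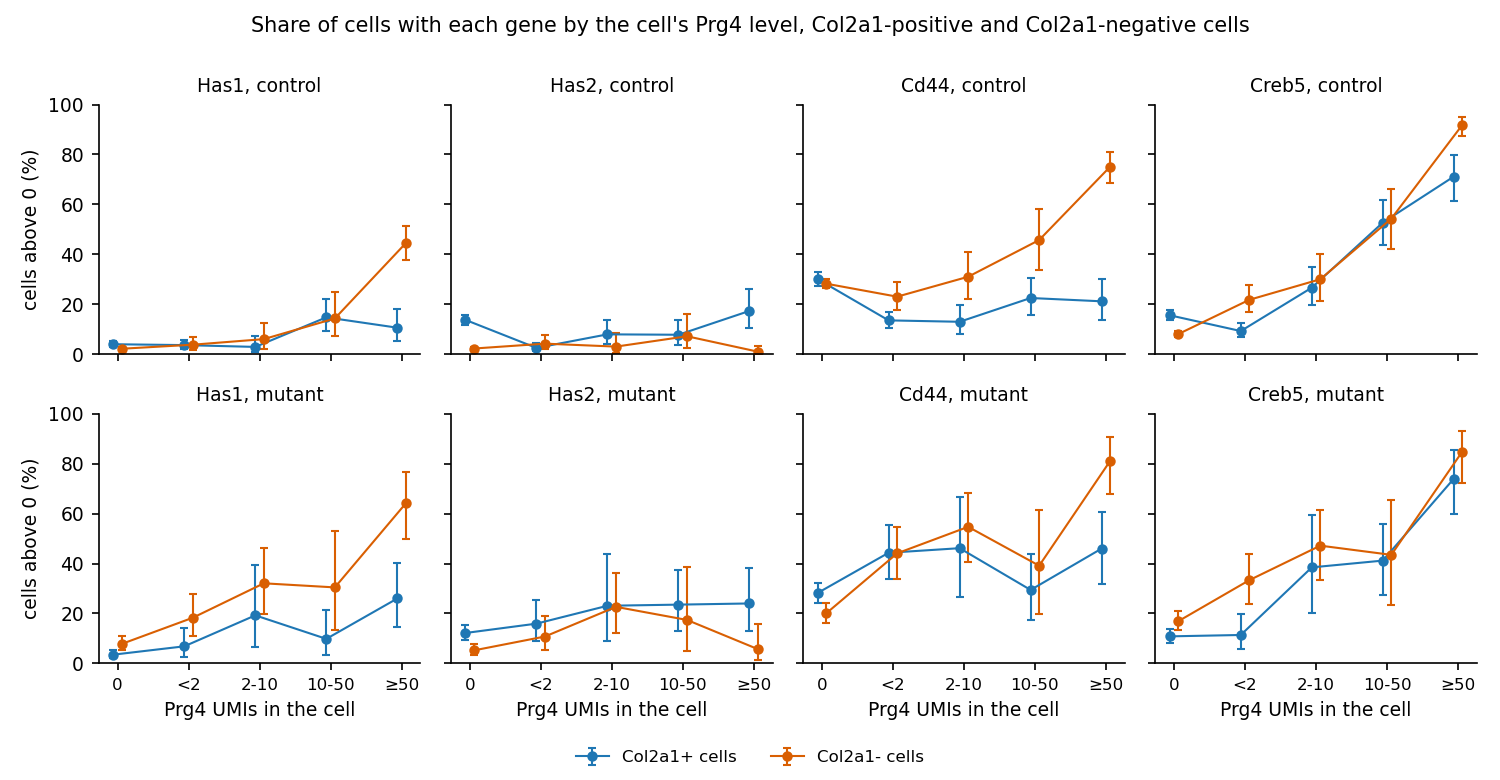
Percent of cells above 0 for Has1, Has2, Cd44 and Creb5 by the number of Prg4 UMIs in the cell (0, above 0 to under 2, 2 to under 10, 10 to under 50, 50 or more), on the Col2a1+ and Col2a1- sides of each library, with exact 95% binomial intervals. Creb5 is highest at 50 or more Prg4 UMIs on both sides, at 71.2% and 91.9% in control, while on the Col2a1- side Has1 reaches 44.5%, Cd44 reaches 75.1% and Has2 ends at 0.957% in control.

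Detection of the members in the same cell was counted as well. Of the 103 control Prg4+Col2a1- cells with at least 10 Prg4 UMIs that had Has1, 90.3% also had Creb5 and 80.6% had Cd44, against 2.91% that had Has2. In the 41 such mutant cells the shares were 95.1%, 87.8% and 9.76%. Creb5 and Cd44 were also common in cells of this gate without Has1. In control, 137 cells without Has1 had Creb5 and 39 lacked it, and 106 had Cd44 and 70 lacked it. In mutant cells without Has1, 16 had Creb5 and 19 lacked it, with the same counts for Cd44. Detection with Has1 was not separated from how common these genes are in the gate. Over the whole gate at that minimum Has2 was in 7 of 279 control cells (2.51%) and 7 of 76 mutant cells (9.21%), so these counts show no split of Has1 and Has2 within cells. On the Col2a1+ side at the same minimum, 4 of 30 control and 4 of 18 mutant cells with Has1 also had Has2. Deeper cells give more genes of every kind, and detection of a pair in 1 cell was not separated from depth here.

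Of the genes that supply UDP-sugars for hyaluronan, Ugp2 and Gnpnat1 were lower on the Col2a1+ side in both libraries, like Has1, while others were past 2-fold in a single library. Of 8 precursor genes tested, 3 were at least 2-fold lower and none higher in control Prg4+Col2a1+ cells with at least 10 Prg4 UMIs, where 10.3% of 6635 genes were lower and 10.8% higher. In mutant cells 3 were lower and 2 higher, where 14.6% of 6323 genes were lower and 9.90% higher. The medians of the list were -0.55 and -0.49, against -0.025 and -0.150 over all genes tested. Ugp2, which makes UDP-glucose, was at 110 CPM on the Col2a1+ and 270 CPM on the Col2a1- side in control, and at 239 and 748 CPM in mutant cells. Gnpnat1, which acetylates glucosamine-6-phosphate, was at 17.6 and 99.5 CPM in control and at 36.8 and 188 CPM in mutant cells.

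Ugdh, which oxidizes UDP-glucose to UDP-glucuronate, was at 264 and 604 CPM (log2 ratio -1.19) in control but at 427 and 510 CPM (-0.26) in mutant cells. For the rate-limiting enzymes of the hexosamine branch the log2 ratios had opposite signs, 0.75 in control and 1.42 in mutant cells for Gfpt1 and -0.94 and -1.67 for Gfpt2. Slc35d1, a nucleotide-sugar transporter, was at 0.81 and 1.23. With all Prg4-positive cells, 3 of 8 precursor genes were lower and none higher in control, and 2 were lower and 2 higher in mutant cells.

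Of the hyaluronan-binding genes, Acan and Hapln1 were higher and Cd44 and Itih5 lower on the Col2a1+ side in both libraries. Acan, whose protein binds hyaluronan in the cartilage matrix, was at 1243 and 115 CPM in control and 643 and 49.5 CPM in mutant Prg4+Col2a1+ and Prg4+Col2a1- cells with at least 10 Prg4 UMIs. Hapln1, the link protein that locks aggrecan to hyaluronan, was at 834 and 21.5 CPM in control and 773 and 62.4 CPM in mutant cells. Both genes are also among the markers of the chondrocyte gate. Itih5, of the family of hyaluronan-bound heavy chains, went with Cd44, at 287 and 883 CPM in control and 179 and 754 CPM in mutant cells. Tnfaip6, which transfers such chains to hyaluronan, stayed under 2-fold (-0.19 and 0.42), and Vcan, another hyaluronan-binding proteoglycan, was at 0.18 in control and -1.66 in mutant cells. Of 6 binding genes tested, 2 were higher and 2 lower in control and 2 higher and 3 lower in mutant cells.

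Of 5 genes of hyaluronan breakdown tested at the same minimum, 2 were at least 2-fold lower on the Col2a1+ side in control (Hexa at -1.38 and Gusb at -1.54, lysosomal enzymes) and none in mutant cells. Cemip and Cemip2, which take part in hyaluronan depolymerization, were at -0.28 and -0.79 in control and 0.72 and 0.54 in mutant cells, under 2-fold and of opposite sign. Hyal1 and Hyal2 did not reach 20 CPM in these gates. Among Cd44 partners, Adam10, a protease that cleaves CD44, was lower on the Col2a1+ side, at 37.0 and 137 CPM in control and 18.3 and 101 CPM in mutant cells. The linker genes Ezr, Rdx and Msn, which tie CD44 to actin, were between -0.99 and -0.02 in both libraries. Spp1 (osteopontin), a CD44 ligand, was at 1.36 in control and -1.67 in mutant cells.

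Genes known to act on Prg4 lay on both sides of 0. Of 13 such genes tested in control cells at the same minimum, Creb5 among them, 3 were higher and 4 lower on the Col2a1+ side, with a median of 0.12. In mutant cells 2 of 12 were higher and 3 lower, with a median of -0.01. Egfr and its ligand Hbegf were lower, Egfr at 116 and 381 CPM in control and 56.3 and 257 CPM in mutant cells, and Hbegf, which is also on the lining marker list, at 1062 and 3636 CPM and at 1388 and 2855 CPM. Erg, an ETS factor of articular chondrocytes, was higher, at 57.2 and 13.2 CPM in control and 42.9 and 2.99 CPM in mutant cells. Foxo1 was at -1.04 and -0.29, and the TGF-β receptor genes Tgfbr1 and Tgfbr2 were under 2-fold in both libraries. None of the 8 relatives of Creb5 was past 2-fold in control cells. In mutant cells Creb3l1 was higher (1.38) and Creb1 lower (-1.69).

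**Figure D4:**
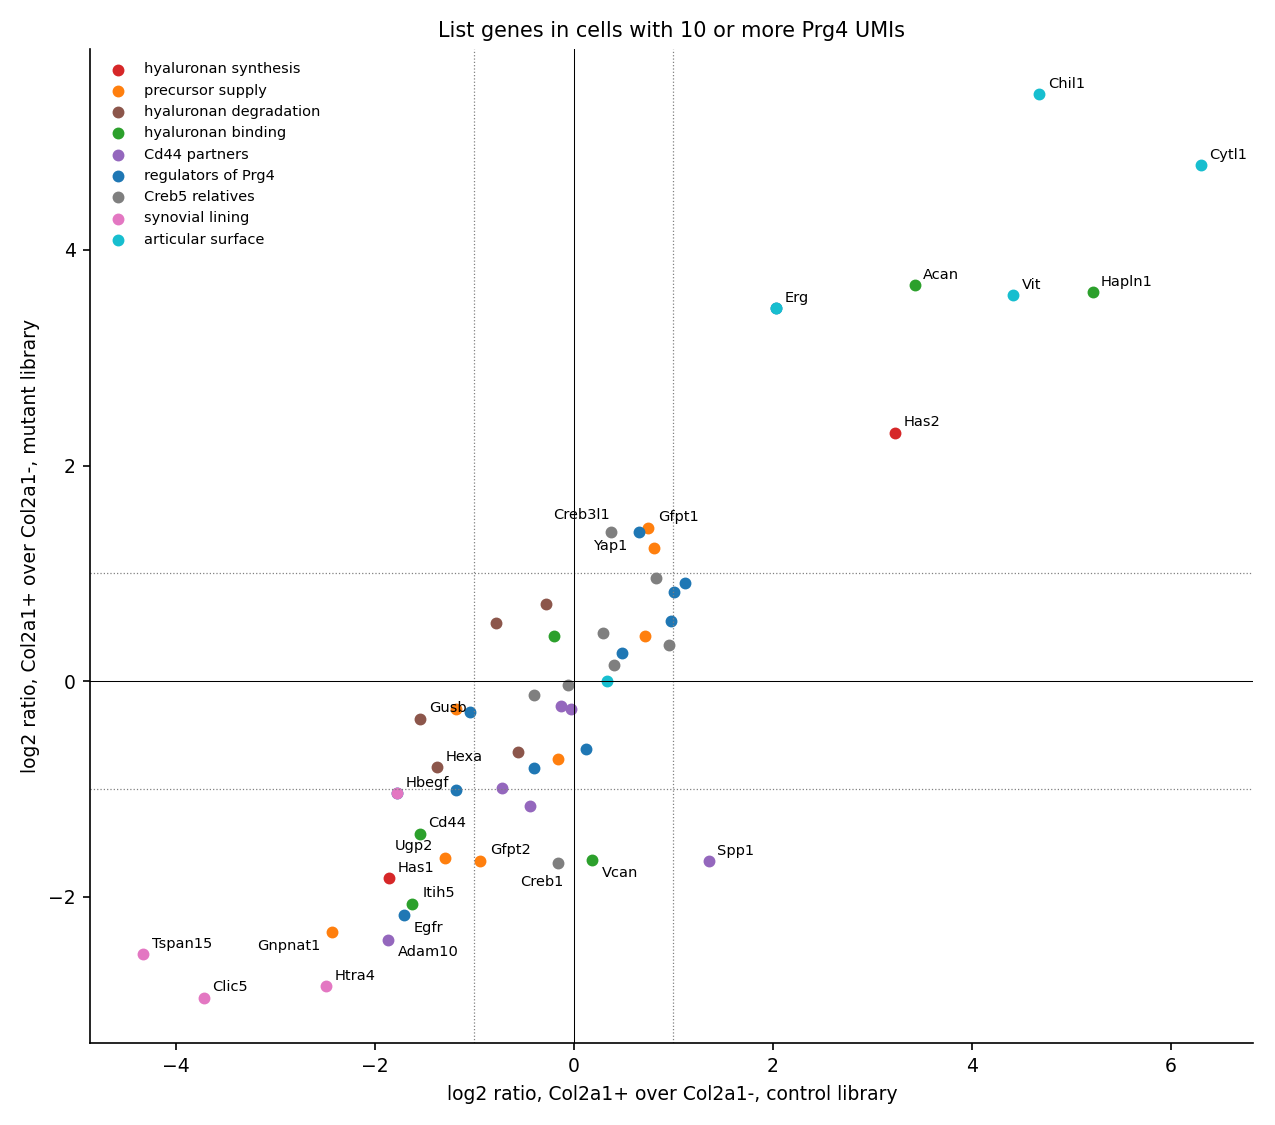
Log2 ratio of Prg4+Col2a1+ over Prg4+Col2a1- CPM in cells with at least 10 Prg4 UMIs, control library on the x axis and mutant library on the y axis, for the 54 list genes tested in both libraries, coloured by list; dotted lines mark 2-fold. Has2 lies in the upper right with Acan and Hapln1, and Has1, Cd44 and Itih5 lie in the lower left with Gnpnat1, Egfr and Adam10.

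Over all genes, with all Prg4-positive cells and 5855 genes tested in both libraries, 218 genes were at least 2-fold higher and 246 at least 2-fold lower in Prg4+Col2a1+ cells of both libraries. The genes highest by the smaller of the 2 ratios were Col9a1, Snorc, Col9a3, Col9a2 and Cnmd, all of cartilage, of which Col9a1 and Col9a3 are also markers of the chondrocyte gate. The lowest were Fut9, Cd55, Rspo2, F13a1 and Cd248. Cd55 encodes a complement regulator known from the synovial lining, and Rspo2 a secreted amplifier of Wnt signalling.

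Cell classes were gated by requiring at least 3 of 6 markers and more than for any of the other classes, and Prg4-positive cells were left out so that the classes share no cell with the gates. Without Prg4, the control order for Has1 was led by fibroblast-gated cells, in which 16.1% had it (11.2% to 22.1%), followed by osteoblast-gated cells with 7.63% (3.72% to 13.6%) and chondrocyte-gated cells with 4.34% (3.0% to 6.04%). The median depths of these cells were 3515 UMIs in fibroblast-, 4619 in osteoblast- and 5498 in chondrocyte-gated control cells, and 7117, 6540 and 8240 in mutant cells. Neighbours in this order had overlapping intervals, but fibroblast- and chondrocyte-gated cells did not. Mutant fibroblast-gated cells had Has1 in 29.6% of 54 cells (18.0% to 43.6%) and chondrocyte-gated cells in 6.0% of 200 (3.14% to 10.2%). Thinned to 1000 UMIs, the Has1 shares of fibroblast- and chondrocyte-gated cells were 4.69% (2.17% to 8.71%) and 0.541% (0.148% to 1.38%) in control.

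Has2 was detected in 19.1% of control chondrocyte-gated cells without Prg4 (16.3% to 22%) and 14.6% of fibroblast-gated cells (9.91% to 20.4%), which overlap, and in 4.58% of osteoblast-gated cells (1.70% to 9.70%), which overlap with neither. In the mutant library the shares were 28.5% (22.4% to 35.3%), 22.2% (12.0% to 35.6%) and 0.917% (0.0232% to 5.01%). No mural-gated cell had a Has2 UMI, 0 of 34 in control and 0 of 27 in mutant, and 3 counts of these totals allow shares of up to 8.82% and 11.1%. At 1000 UMIs per cell the Has2 shares of chondrocyte- and fibroblast-gated cells were 4.19% (2.87% to 5.90%) and 5.21% (2.53% to 9.37%) in control and 5.08% (2.35% to 9.43%) and 1.92% (0.0487% to 10.3%) in mutant cells, so their order turned in control and the intervals overlapped in both libraries. The Has2 level of fibroblast-gated cells, 46.3 CPM in control and 47.0 CPM in mutant, lay well above that of the control Prg4+Col2a1- cells with at least 10 Prg4 UMIs, at 4.88 CPM.

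Cd44 was most often detected in fibroblast-gated cells, in 52.6% of control (45.3% to 59.8%) and 63.0% of mutant cells (48.7% to 75.7%). Chondrocyte-gated cells followed with 38.0% (34.5% to 41.5%) and 51.5% (44.3% to 58.6%), and tendon- and ligament-gated cells with 33.3% (23.9% to 43.9%) and 13.0% of 23 cells (2.78% to 33.6%). Creb5 was also most often detected in fibroblast-gated cells, in 53.1% of control (45.8% to 60.3%) and 74.1% of mutant cells (60.3% to 85.0%). It was in 19.2% of control (16.4% to 22.2%) and 18.5% of mutant chondrocyte-gated cells (13.4% to 24.6%), whose intervals do not reach those of the fibroblast-gated cells in either library. Marrow stromal cells had it in 2.65% (0.551% to 7.56%) and 1.25% (0.0316% to 6.77%). A Creb5 share above 50% was thus found in fibroblast-gated cells that had no Prg4. Thinned to 1000 UMIs, the Cd44 shares of fibroblast- and chondrocyte-gated cells were 27.1% and 10.6% in control and 32.7% and 15.3% in mutant cells, and the Creb5 shares 28.6% and 5.14% in control and 23.1% and 3.39% in mutant cells.

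Prg4 itself was above 0 in 65.7% of control tendon- and ligament-gated cells (59.7% to 71.3%), 36% of fibroblast-gated cells (30.6% to 41.7%) and 34.1% of chondrocyte-gated cells (31.3% to 36.9%). The mutant shares were 52.1% (37.2% to 66.7%), 60.0% (51.2% to 68.3%) and 38.8% (33.5% to 44.4%). Mural-gated cells had Prg4 in 38.2% of control cells but at 155 CPM, against 2100.1 CPM in tendon- and ligament-gated and 8630.0 CPM in fibroblast-gated cells.

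**Figure D5:**
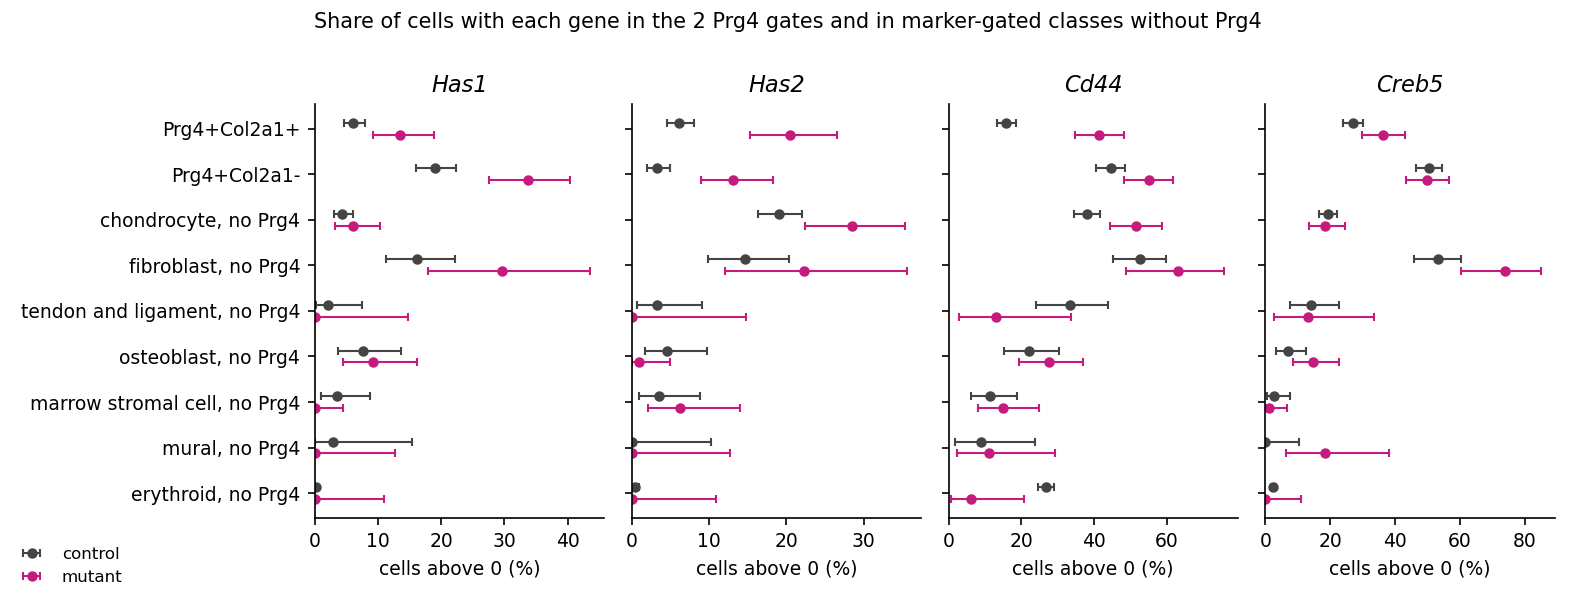
Percent of cells above 0 for Has1, Has2, Cd44 and Creb5 in the 2 Prg4 gates and in marker-gated classes without their Prg4-positive cells. Both libraries are shown, with exact 95% binomial intervals. Among the classes, Has1 and Creb5 are highest in fibroblast-gated cells, while Has2 is shared between chondrocyte-gated (19.1% in control) and fibroblast-gated cells (14.6%). The Has1 share of Prg4+Col2a1- cells, 19.1% in control and 33.8% in mutant, is above that of fibroblast-gated cells, with overlapping intervals. These shares are not at equal depth.

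Between the genotypes the members differed by less than 2-fold in most comparisons. In Prg4+Col2a1+ cells the log2 ratios of mutant over control CPM were 0.09 for Prg4, 0.66 for Has1, 0.58 for Has2, 0.87 for Cd44 and -0.26 for Creb5, none of them past 2-fold. All 5 turned sign under at least 1 alternative, running from -0.84 to 0.51 for Prg4, -0.52 to 1.08 for Has1, -0.41 to 0.99 for Has2, -0.33 to 1.15 for Cd44 and -0.58 to 0.23 for Creb5, so no direction is given for them. Of 6481 genes tested there, 4.66% were higher and 12.6% lower in the mutant library, with a median of -0.200. In Prg4+Col2a1- cells the ratios were -0.91 for Prg4, 0.50 for Has1, 1.47 for Has2, 0.13 for Cd44 and -0.58 for Creb5. Has2 was the member past 2-fold, where 6.81% of 6811 genes were higher and 6.18% lower, with a median of -0.061. Its 3 highest cells held 26.6% of the Has2 UMIs in control and 27.3% in mutant cells of that gate, and 10 CPM added in place of 1 gave 0.97.

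Depth, blood RNA and composition moved with these genotype values. The median depth was 2085 UMIs in control and 6009 in mutant Prg4+Col2a1+ cells, and 3390 and 6125 in Prg4+Col2a1- cells. At least 1 globin UMI was found in 72.9% of control and 4.65% of mutant Prg4+Col2a1+ cells, and in 65.0% and 4.95% of Prg4+Col2a1- cells. Cells above 5% mitochondrial made up 30.9% of control and 21.4% of mutant Prg4+Col2a1+ cells, and 16.0% and 15.3% of Prg4+Col2a1- cells. The lining list (Clic5, Tspan15, Hbegf and Htra4) had a median mutant over control ratio of 0.74 in Prg4+Col2a1+ and -0.63 in Prg4+Col2a1- cells. All 6 fibroblast gate markers were tested in Prg4+Col2a1- cells, and 3 were higher in the mutant library, with a median of 1.13. Of the 6 tendon and ligament gate markers, 4 were lower in the mutant library in Prg4+Col2a1- cells (median -1.41) and 5 in Prg4+Col2a1+ cells (median -1.99). Of the 6 marrow stromal gate markers, 3 were higher in mutant Prg4+Col2a1- cells, with a median of 1.23. Of the 6 growth cartilage genes, 3 were higher and 0 lower in mutant Prg4+Col2a1+ cells, with a median of 1.18. Of 5 articular surface genes tested in that gate, 2 were higher and 1 lower, with a median of -0.27. The parts of these differences in composition in the values of the members were not tested. Fewer lining cells in a gate and less of a transcript per cell cannot be told apart in these sums.

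At 1000 UMIs per cell the Has2 share was 2.42% (1.39% to 3.91%) in control and 2.94% (1.09% to 6.29%) in mutant Prg4+Col2a1+ cells, and 1.39% (0.601% to 2.72%) and 1.90% (0.519% to 4.78%) in Prg4+Col2a1- cells. The unthinned gaps of 6.13% against 20.5% and 3.24% against 13.1% were thus not detectable at equal depth. For Has1 the thinned shares were 2.88% and 5.88% in Prg4+Col2a1+ and 6.60% (4.71% to 8.94%) and 12.3% (8.21% to 17.5%) in Prg4+Col2a1- cells. For Cd44 they were 6.67% (4.89% to 8.85%) in control and 13.7% (9.32% to 19.2%) in mutant Prg4+Col2a1+ cells, intervals that did not overlap, and 18.8% and 20.4% in Prg4+Col2a1- cells. For Creb5 they were 14.5% and 14.7% in Prg4+Col2a1+ and 30.4% (26.6% to 34.3%) and 21.8% (16.4% to 28.0%) in Prg4+Col2a1- cells.

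Among Col2a1- cells with at least 50 Prg4 UMIs the shares of the genotypes had overlapping intervals. There Cd44 was detected in 75.1% of control (68.7% to 80.8%) and 81.1% of mutant cells (68.0% to 90.6%) and Creb5 in 91.9% and 84.9%. Has1 was detected in 44.5% (37.6% to 51.5%) and 64.2% (49.8% to 76.9%), in cells with a median of 4700 and 10262 UMIs. On the Col2a1+ side at the same minimum the unthinned Cd44 intervals did not overlap. The shares were 21.2% of control (13.8% to 30.3%) and 46.0% of mutant cells (31.8% to 60.7%), at medians of 3625 and 8019 UMIs. At equal depth they were 5.83% (2.17% to 12.2%) and 12.0% (4.53% to 24.3%), with overlapping intervals. The Cd44 levels of these control and mutant cells were 106 and 126 CPM. The Prg4 ratio of -0.91 in Prg4+Col2a1- cells was -0.42 at 10 or more and -0.40 at 50 or more Prg4 UMIs.

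The genes whose levels were most like those of each member were named from the correlation of log2(CPM + 1) over 9 groups (the 2 gates and 7 classes without Prg4), averaged over the libraries, among 5162 genes. The 9 groups share libraries and differ in depth, so the values are a description. Closest to Prg4 were Clic5 (mean r 0.96), Msmp, Htra4, F13a1 and Tmem196. Prg4 is absent from the 7 classes because its positive cells were left out. Its order of genes thus mainly reflects the gates against the classes, which Prg4 itself set. Closest to Has1 were Pcsk6 (0.85), Ackr3, Ugdh (0.83), Fn1 and Gas7, and closest to Has2 were Cpne8 (0.91), Ace, Il17d, Colgalt2 and Fnip1. Cd44 was most like Gas7 (0.94), Uap1 (0.91), Cd34, Gfpt2 and Pcsk6, and Creb5 most like Stxbp6 (0.93), Anxa7, Gnpnat1 (0.90), Hspb8 and Rab7b. Cd34 is a marker of the fibroblast gate, so its pattern over the groups was partly set by the gating. The precursor genes Ugdh, Uap1, Gfpt2 and Gnpnat1 thus appeared among the nearest genes of Has1, Cd44 and Creb5, and none appeared among those of Has2.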

How the data were processed

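Each deposited table holds 1 library with a row per cell. Reads were aligned by the authors to mm10 with STAR 2.7.3a in Partek Flow, duplicate UMIs were removed, genes were counted on Gencode, cells were called from a knee plot and ambient RNA was removed with SoupX. The deposited gene values are log2(CPM + 1) of each cell. Each cell's total is a deposited estimated count, mitochondrial and ribosomal shares are deposited as a percent of it, and the number of expressed genes is a score per cell in the deposited table. The authors' mark of selected cells was not used to choose cells.

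To recover estimated UMIs, 2 was raised to the value, 1 was subtracted, and the result was multiplied by the total of the cell and divided by 1000000. In control 74.9% and in mutant 97.3% of nonzero results fell within 0.1 of an integer, so no count model was used. UMIs were summed over the cells of a group (23576417 in all control and 7452649 in all mutant cells), scaled to CPM, and compared as log2 ratios with 1 CPM added. A difference of at least 2-fold was named as such and nothing was tested, since each genotype has 1 library. Genes needed 20 CPM in either group and a value above 0 in 5% of the cells of either. The 11 class gates used 6 markers each, and classes under 20 cells in a library were not printed. Shares at equal depth came from thinning rounded UMIs to 1000 per cell, leaving out shallower cells (660 of 816 and 576 of 618 control and 204 of 215 and 211 of 222 mutant cells of the gates remained). Scrublet (scanpy 1.11.5, expected rate 0.05) marked 74 control and 2 mutant cells, the latter too few for the caller to be relied on, and these were kept. Calculations used numpy 2.4.6, scipy 1.17.1 and pandas 2.3.3 and were checked on constructed counts with known ratios.

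The members, gates and lists were chosen with earlier results of these data known. Named genes were the members, list genes past 2-fold in both libraries and others of the lists with their values, the 5 genes most like each member, and the 5 highest and lowest genes between the gates in both libraries, leaving out Col2a1. Alternatives were the Prg4 minimum (2, 10 or 50 UMIs), the mitochondrial and globin content, doublets, depth, other classes, the weighting of cells, the pseudocount, the scaling and the highest cells. The minimum of 50 and that of 10 without globin were chosen after seeing the data.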

Additional observations from a re-analysis of the deposited data

Results flagged for a closer look

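Prg4 had genotype ratios of opposite sign on the 2 sides of the Col2a1 gate in the main comparison, with a log2 ratio of mutant over control CPM of 0.088 in Prg4+Col2a1+ and -0.91 in Prg4+Col2a1- cells. The difference between the sides was not tested, since each genotype has 1 library. The ratio in Prg4+Col2a1+ cells ran from -0.84 to 0.51 over the alternatives, so its sign turned, while that in Prg4+Col2a1- cells ran from -1.24 to -0.40.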

How the results depend on the processing

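No paired analysis was possible because each genotype has 1 library and no test was made. No ratio of the members reversed a call of 2-fold under any alternative. The genotype ratios of all 5 members in Prg4+Col2a1+ cells, none past 2-fold in the main comparison, turned sign under some alternatives. Of 252 recomputed ratios, 226 stayed on their side of 2-fold. The cause of the other changes was not tested, except that pseudocounts shrink ratios by construction. Ratios are log2, of Prg4+Col2a1+ over Prg4+Col2a1- unless a genotype ratio is named.

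With at least 2 UMIs of Prg4 and of Col2a1, Prg4 was in 15.3% of control and 19.1% of mutant cells, the Col2a1+ part of Prg4-positive cells was 42.4% and 38.0%, 1216 genes (711 in the main comparison) were past 2-fold between control gates, and mutant ratios were 1.36 for Has2 and -1.46 for Cd44. Has1 in mutant cells was -3.04. At least 10 Prg4 UMIs gave 10.4% and 13.2% Prg4-positive cells, Col2a1+ parts of 45.5% and 57.1%, 1403 genes, mutant ratios of 2.31 for Has2 and -1.42 for Cd44, and 7 list genes past 2-fold between genotypes in Prg4+Col2a1+ cells. At least 50 gave 1857 genes, mutant ratios of 3.19, -1.71 and -0.67 for Has2, Cd44 and Creb5, and 1.08 for Has1 between genotypes in Prg4+Col2a1+ cells. At least 10 without globin gave -0.93 for control Cd44, 1720 genes, and 2.32, -1.40 and -0.99 for mutant Has2, Cd44 and Creb5.

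Cells at most 5% mitochondrial gave 25.7% and 42.1% Prg4-positive cells, a control Col2a1+ part of 52.1% and -1.13 for Prg4 between genotypes in Prg4+Col2a1- cells. Cells without globin gave 36.7% and 50.6% in control, 1114 genes, 1.07 for mutant Has2 and -1.24 for that Prg4 ratio. Thinning gave 17.8% and 22.6%, parts of 37.9% and 35.2%, Creb5 at -0.84 and -0.70, and genotype ratios of 1.09 for Cd44 in Prg4+Col2a1+ and 1.19 for Has1 in Prg4+Col2a1- cells. Without blood, endothelial and muscle gates Prg4 was in 42.4% of control cells. Equal weights gave -0.55 for mutant Creb5 and 1.15 for Cd44 between genotypes in Prg4+Col2a1+ cells. A pseudocount of 10 gave 452, 884, 604 and 517 genes past 2-fold (711, 1332, 1118 and 885 in the main comparisons) and 0.97 for Has2 between genotypes in Prg4+Col2a1- cells. Median-of-ratios scaling gave 1.09 and -0.93 for mutant Has2 and Creb5. Without the 3 highest cells mutant Has2 was 1.06 and Prg4 between genotypes in Prg4+Col2a1- cells -1.19.

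Thinning moved 55 of 60 shares of the members in marker-gated classes beyond their interval, and the order of chondrocyte- and fibroblast-gated cells for Has2 turned in control. Depth limits the shares, since most positive cells held 1 or 2 UMIs of Has1 or Has2.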
